A study of Mus musculus with 48 samples.

Results

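The insulin receptor, insulin-like growth factor and growth hormone axis of the liver was followed through 10 genes: Insr, Irs1, Irs2, Ghr, Igf1, Igfals, Igfbp1, Igfbp2, Socs2 and Socs3. The members were all probes whose gene name in the scanner files is one of these symbols. The array carried 19 such probes among 56605 probes that are not controls, and 10 gene names among 37074. All 10 genes had at least 1 probe that passed the filter on dim probes, and 18 of the 19 probes were tested among 33323.

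Hepatic gene expression was measured on 1-colour arrays in 48 male C57Bl6J mice, with 1 array for each animal and 6 groups of 8. Wild-type mice (WT), mice lacking Pparα in hepatocytes through an albumin-Cre transgene acting on a floxed allele (PPARα LKO in the labels, Pparα hep-/- here), and mice with a germline deletion of Pparα in all cells (PPARα KO in the labels, Pparα-/- here) received a control diet (CTRL) or a high fat diet (HFD). By the labels the HFD held 60% fat, feeding lasted 12 weeks and the mice were 20 weeks old. The study's methods state a shorter feeding period, so its length is in doubt. All groups were housed at thermoneutrality and killed in the fed state. The WT mice came from a supplier and the mutants from an in-house colony, so genotype and origin cannot be told apart. PPARα is the nuclear receptor that drives fatty acid catabolism in the liver.

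Insulin and growth hormone act on the liver through different kinds of receptor. The insulin receptor is a tyrosine kinase that signals through the adaptor proteins IRS1 and IRS2 to the AKT kinases, which retain FOXO1 in the cytosol. The growth hormone receptor has no kinase of its own and signals through JAK2 and STAT5, which induce Igf1, Igfals and the feedback inhibitor Socs2. The liver is the main source of circulating IGF1, and Igfbp1 and Irs2 are textbook examples of genes that FOXO1 induces and insulin represses.

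Promoter stretches of 4 of the genes are printed because their textbook inducers, FOXO1 and the STAT factors, have known binding motifs. The 250 bases before each transcript start were searched on both strands for CAAAACA, the core of the insulin response element that FOXO1 binds, and for TTCNNNGAA, the STAT motif. RefSeq promoters on GRCm38.p6 were at hand for 8 of the 10 genes, excluding Insr and Socs2. Capitals mark the motif (TGTTTTG is CAAAACA on the other strand), and sequences read 5′ to 3′ on the strand of the gene.
Igfbp1, chr11:7197647-7197726, plus strand: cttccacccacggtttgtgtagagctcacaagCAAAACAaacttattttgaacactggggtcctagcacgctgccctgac
Irs2, chr8:11008930-11009009, minus strand: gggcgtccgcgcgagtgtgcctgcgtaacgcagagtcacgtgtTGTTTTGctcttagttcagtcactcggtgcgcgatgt
Irs1, chr1:82291460-82291559, minus strand: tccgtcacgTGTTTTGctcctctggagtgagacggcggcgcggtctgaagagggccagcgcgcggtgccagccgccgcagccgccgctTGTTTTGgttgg
Socs3, chr11:117969477-117969556, minus strand: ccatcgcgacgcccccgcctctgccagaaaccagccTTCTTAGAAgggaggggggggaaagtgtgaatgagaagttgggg
CAAAACA lay 108 to 102 bases before the start of Igfbp1, 37 to 31 bases before that of Irs2, and at 2 places before that of Irs1. It was found in 5.56% of all 32851 promoters. TTCNNNGAA lay 154 to 146 bases before the start of Socs3 and also before 2 of the 3 starts listed for Igfals, against 7.02% of all promoters. The 2 motifs do not share a stretch in the printed sequences. A match is only a description of these letters.

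Array weights, which limma estimates from how closely an array follows its group over all probes, were below 0.5 for 5 arrays. These were Pparα hep-/- CTRL mouse 1 (0.189), WT CTRL mouse 6 (0.208), WT HFD mouse 2 (0.343), WT HFD mouse 6 (0.372) and Pparα-/- CTRL mouse 3 (0.419), while the highest weight was 2.53. They were kept, and counts are given also without weights. Between 28234 and 38217 of 59305 spots were well above background on an array, and none was saturated. The targeted gene, Ppara, had 2 tested probes. The brighter (A_55_P2055854) was lower than in WT by -0.42 (adjusted p = 8.87e-04) on CTRL and -0.85 (5.11e-10) on HFD in Pparα hep-/- livers, and by -0.65 (1.10e-06) and -1.08 (2.77e-14) in Pparα-/- livers. The other (A_55_P2071596) gave -1.11 (adjusted p = 5.27e-13) and -1.29 (1.74e-17) in Pparα-/- livers, and -0.10 (0.454) on CTRL and -0.68 (3.34e-08) on HFD in Pparα hep-/- livers. Where these probes lie relative to the deleted part was not determined, so they are no full check of the labels. All 8 hepatocyte markers, Alb among them, were tested and their summed signal lay between 20.47 and 20.71 (log2) in every mouse. Single hepatocyte markers were called, 2 lower and 0 higher on HFD in WT livers (Cps1 at -0.88 and Ass1 at -0.37, 2 called without weights), 1 higher and 2 lower on HFD in Pparα-/- livers (Cps1 at -0.71 and Tat at -0.60 lower, 1 without weights) and 3 lower in Pparα-/- against WT on CTRL (Cps1 at -0.62, Apoa1 at -0.51 and Ass1 at -0.33, 2 without weights). All probes were called at 18.8%, 24.8% and 34.2% in these comparisons. In the other genotype and diet comparisons 1 or 2 hepatocyte markers were lower and at most 1 higher. The Kupffer cell and macrophage list (11 genes) had 9 higher and 1 lower gene in Pparα-/- than in WT livers on HFD, with a summed log2 signal of 15.84 to 16.89 against 14.18 to 16.61. The stellate cell list had 9 of 9 genes higher there (6 without weights), the monocyte and neutrophil list 7 of 7 (2 without weights) and the sinusoidal endothelial list 5 higher and 1 lower of 7 (5 without weights). In Pparα hep-/- against WT livers on HFD 7 of 11 Kupffer, 8 of 9 stellate, 6 of 7 monocyte and 3 of 7 endothelial genes were higher (2, 3, 1 and 1 called without weights). On CTRL, Pparα-/- livers had 4 of 11 Kupffer (3 without weights), 3 of 9 stellate (1) and 1 of 7 monocyte genes (1) higher than WT, and 3 endothelial genes higher and 1 lower (2). For Pparα hep-/- against WT on CTRL, 3 of 11 Kupffer (1), 2 of 9 stellate (1), 1 of 7 monocyte (1) and 2 of 7 endothelial genes (2) were higher and none lower, among them Lrat at 0.87 and Ly6c2 at 1.24. Of all probes, 34.2% were called in Pparα-/- and 24.7% in Pparα hep-/- against WT on CTRL, and 45.7% and 26.7% on HFD. The Kupffer and stellate counts on CTRL are close to these shares. The part of these markers in the CTRL differences was not tested. HFD feeding raised 8 of 11 Kupffer genes and lowered 1 (5 called without weights), and raised 9 of 9 stellate (3) and 7 of 7 monocyte genes (2) in Pparα-/- livers. It also raised 4 genes of each of these lists in Pparα hep-/- livers, none of them called without weights. The share of all probes called on HFD was 24.8% in Pparα-/- and 20.2% in Pparα hep-/- livers. Of 5 white adipocyte markers, Adipoq and Plin1 did not pass the filter, and the summed signal of the other 3 was 8.73 to 15.52 in WT HFD livers against 8.05 to 10.27 in WT CTRL livers, mostly Cfd. Of 6 pancreas markers Ins2, Cpa1, Pnlip and Prss1 did not pass the filter, while Amy2a5 was higher in Pparα-/- than in WT livers on CTRL (0.48) and HFD (0.41), and Cela1 lower on HFD (-0.79). In whole liver RNA, fewer cells of a type and less RNA per cell cannot be told apart.

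Values below are quantile-normalized log2 intensities of the brightest tested probe of each gene, and differences are limma estimates on the log2 scale with 1 SE, adjusted over all tested probes of a comparison. Calls required an adjusted p no greater than 0.05. Groups serve in several comparisons, so these are not independent of each other. Across 10 genes and 12 comparisons 42 differences were called, 29 of them in each of 48 fits that left out 1 array and 21 in every fit that was run. They were 7 of 30 diet responses, 29 of 60 genotype differences and 6 of 30 differences of responses. The mean percent of all probes called was 21.3%, 31.2% and 9.39%. All 42 had the same sign within both wash batches, but they were chosen on these same arrays, so this is no independent check. Values within a wash batch come from fits without array weights. They can differ from the weighted estimates through the weighting as well as the batch.

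HFD feeding lowered 3 of the 10 genes in WT livers (Irs2, Socs2, Socs3), 1 in Pparα hep-/- livers (Igfbp2) and 3 in Pparα-/- livers (Igf1, Igfals, Ghr), and raised none at this threshold. Of all tested probes, 18.8% were called in WT (10.2% lower), 20.2% in Pparα hep-/- (10.8% lower) and 24.8% in Pparα-/- (12.6% lower). The median log2 difference of the 10 genes was -0.17, -0.16 and -0.21, against -0.01, -0.01 and -0.02 over all probes. Without array weights the counts were 2, 1 and 1.

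Between genotypes on CTRL, 6 genes were called for Pparα hep-/- against WT (background 24.7%), 5 for Pparα-/- against WT (34.2%) and 6 for Pparα-/- against Pparα hep-/- (25.2%). On HFD the counts were 5 (26.7%), 3 (45.7%) and 4 (30.6%). Without weights they were 4, 5 and 5 on CTRL and 3, 2 and 2 on HFD. The 8 mice of one genotype did not overlap with those of the other for 1 gene (1.31% of all probes), 2 genes (6.15%) and 1 gene (4.43%) in the 3 CTRL comparisons, and on HFD for 1 gene in Pparα-/- against WT (6.93%) and 2 genes in Pparα-/- against Pparα hep-/- (6.55%). The difference between HFD responses was called by limma for 1 gene in Pparα hep-/- against WT (10.4%), 5 in Pparα-/- against WT (14.3%) and 0 in Pparα-/- against Pparα hep-/- (3.42%), where 3 of 10 genes had an unadjusted p below 0.05. Without weights these counts were 0, 1 and 0.

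**Figure D1:**
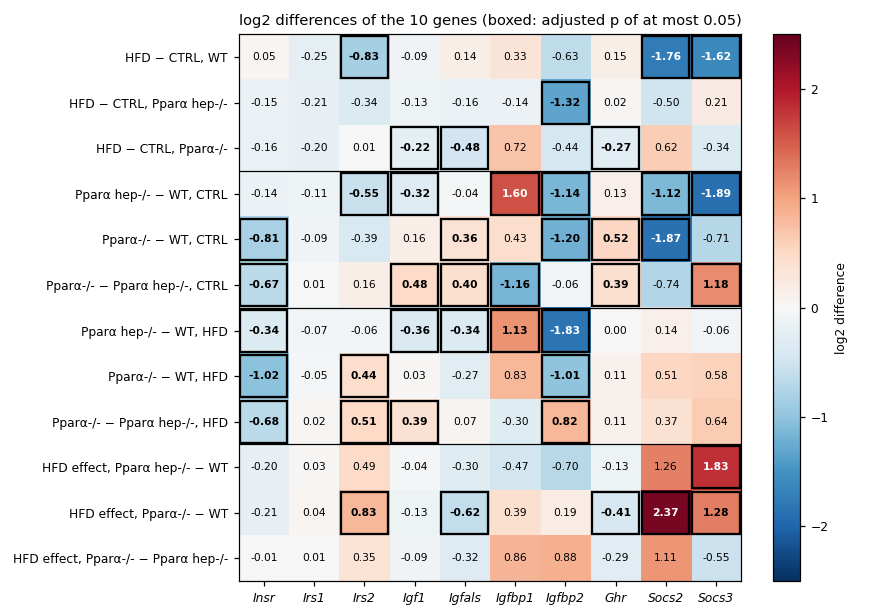
Log2 differences of the brightest probe of each gene (columns) in the 12 comparisons (rows), coloured from blue (lower) to red (higher), with boxes around the calls. Insr is boxed in 5 of 6 genotype comparisons and Irs1 in none, while the 3 boxes in the WT diet row are all negative.

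The insulin receptor transcript, Insr, was lower in Pparα-/- livers than in either other genotype on both diets. There were 2 Insr probes on the array, both on the minus strand of mm9 and at chr8:3155472-3155531 (the brighter) and chr8:3159473-3159532. The first 30 of their 60 bases are shown because both carried the result:
A_55_P2173927: tttctgtttgtcttttgacctgaaaacaca
A_52_P6490: ggcaagggactgcttcctgtgaggtggatg
The array's design assigns both to the same transcript, and whether they lie in coding or untranslated exons was not analysed here.

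In WT livers the Insr level ran from 7.65 through a median of 8.37 to 8.65 on CTRL and from 7.97 through 8.39 to 8.74 on HFD. Values in Pparα hep-/- livers ran from 7.54 through 8.29 to 8.52 on CTRL and from 7.85 through 8.09 to 8.24 on HFD. Levels in Pparα-/- livers were 7.17 to 7.75 (median 7.62) on CTRL and 7.21 to 7.56 (median 7.44) on HFD. On HFD no Pparα-/- mouse overlapped with a mouse of either other genotype, and on CTRL the groups overlapped only through WT mouse 6 and Pparα hep-/- mouse 1, the 2 arrays of lowest weight, beyond which the next lowest values were 8.20 and 8.08.

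Against WT, Insr was lower in Pparα-/- livers by -0.81 ± 0.08 on CTRL (1.75-fold, adjusted p = 3.77e-11) and by -1.02 ± 0.07 on HFD (2.03-fold, adjusted p = 1.72e-16). Against Pparα hep-/- livers the differences were -0.67 ± 0.07 on CTRL (1.59-fold, adjusted p = 4.09e-10) and -0.68 ± 0.07 on HFD (1.60-fold, adjusted p = 1.13e-11). Within wash batches 1 and 2 these 4 differences ranged from -0.50 to -1.09. Insr in Pparα hep-/- livers was lower than in WT by -0.34 ± 0.07 on HFD (1.27-fold, adjusted p = 2.96e-04, all 8 mice below the WT mean), while on CTRL it was -0.14 with a 95% interval of -0.29 to 0.02 (adjusted p = 0.199). The dimmer Insr probe was called in the same 5 comparisons with smaller sizes, from -0.19 (adjusted p = 0.0401) to -0.57 (adjusted p = 1.02e-08). Its smallest, Pparα hep-/- against WT on HFD, was called in 41 of 48 fits that left out 1 array and not without weights (-0.14, adjusted p = 0.352). HFD differences of Insr were 0.05, -0.15 and -0.16 in WT, Pparα hep-/- and Pparα-/- livers and did not pass the threshold, though the last was called without Pparα-/- CTRL mouse 2 (-0.20, adjusted p = 0.0299). The 5 calls of the brighter probe were made in every fit that was run. Genes of the Kupffer cell, stellate cell and monocyte lists were higher than in WT in Pparα-/- and Pparα hep-/- livers on HFD, as given above, and their part in the differences was not tested.

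Downstream of the receptor, the adaptor transcripts Irs1 and Irs2 were each read by a probe. Irs1 (mm9 chr1:82229692-82229751, minus strand) was called by limma in 0 of 12 comparisons (0 at an unadjusted p below 0.05 and 0 without weights), with differences of -0.25 to 0.04 and all 48 mice between 9.66 and 10.90. Its HFD differences were -0.25 in WT (95% interval -0.54 to 0.04), -0.21 in Pparα hep-/- and -0.20 in Pparα-/- livers. Irs2 (chr8:11004490-11004549, minus strand), whose gene insulin represses, varied with diet and genotype. Its level in WT livers ran from 10.75 through 11.25 to 11.75 on CTRL and from 10.14 through 10.26 to 12.00 on HFD. Its level in Pparα hep-/- livers was 10.07 to 11.22 (median 10.78) on CTRL and 10.04 to 11.16 (median 10.49) on HFD. Pparα-/- livers had 10.29 to 12.09 (median 11.00) on CTRL and 10.37 to 11.76 (median 10.78) on HFD. All these ranges overlapped, and in the WT HFD group 5 of 8 mice lay between 10.14 and 10.28 while mouse 2, of low weight, had the highest value.

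Irs2 fell on HFD in WT livers by -0.83 ± 0.18 (1.77-fold, adjusted p = 9.33e-04), with -0.73 and -0.52 in wash batches 1 and 2. In Pparα hep-/- livers the Irs2 diet difference was -0.34 (adjusted p = 0.108, but called with processed signals scaled to the 75th percentile at -0.41, 0.0468) and in Pparα-/- livers 0.01 (adjusted p = 0.983). The response of Pparα-/- livers differed from that of WT livers by 0.83 ± 0.24 (adjusted p = 0.0167), a call that was lost without WT HFD mouse 7 (adjusted p = 0.0520) and without weights (adjusted p = 0.248). Irs2 was also lower in Pparα hep-/- than in WT livers on CTRL, by -0.55 ± 0.18 (1.46-fold, adjusted p = 0.0180, and 0.0646 without weights). On HFD it was higher in Pparα-/- livers than in WT by 0.44 ± 0.16 (1.36-fold, adjusted p = 0.0191) and than in Pparα hep-/- by 0.51 ± 0.15 (1.42-fold, adjusted p = 0.00705). The difference from WT was lost without WT HFD mouse 7 (adjusted p = 0.127), WT HFD mouse 8 (0.0554) or Pparα-/- HFD mouse 7 (0.0522), and under 5 of 12 other settings, no weights (0.252) among them. In Pparα-/- against WT livers on CTRL it was -0.39 (adjusted p = 0.0986), called without Pparα-/- CTRL mouse 3 (0.0498). The HFD difference from Pparα hep-/- was lost without weights (0.0540) and without the wash batch term (0.112). The CAAAACA motif printed above lies in the promoters of both adaptors.

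**Figure D2:**
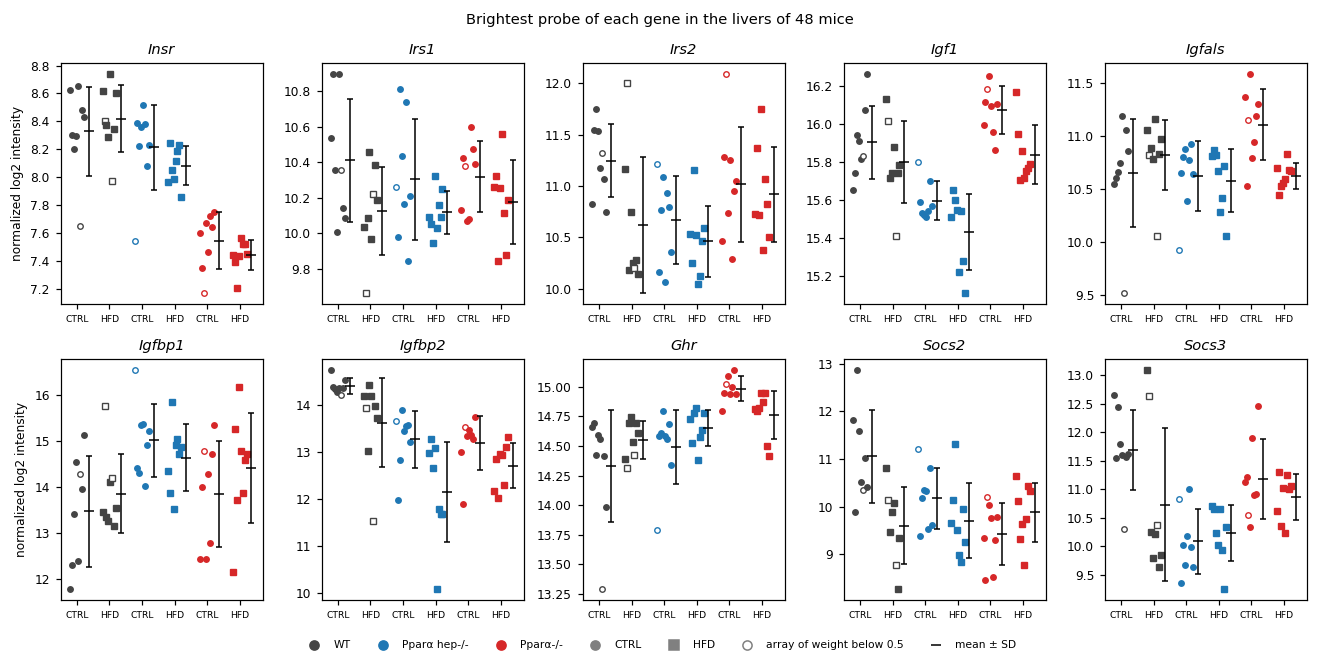
Normalized log2 intensity (vertical axis) of the brightest probe of each gene in all 48 mice, by genotype (colour) and diet (circles CTRL, squares HFD), with open symbols for arrays of weight below 0.5 and bars for the mean ± SD of 8 mice. Insr is lowest in Pparα-/- mice, Igfbp2 is highest in WT CTRL mice (14.22 to 14.75), and Socs3 in WT HFD mice splits into 6 mice of at most 10.37 and 2 of at least 12.63.

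The growth hormone receptor, Ghr, was higher in Pparα-/- livers on the CTRL diet by its brightest probe, and its 4 probes differed in their calls on both diets. Its brightest of 4 probes (mm9 chr15:3277543-3277602, minus strand) ran from 13.29 through 14.49 to 14.69 in WT CTRL livers, from 13.79 through 14.58 to 14.80 in Pparα hep-/- CTRL livers and from 14.80 through 14.97 to 15.14 in Pparα-/- CTRL livers. On HFD the ranges were 14.31 to 14.75 (median 14.57), 14.38 to 14.82 (median 14.68) and 14.41 to 14.95 (median 14.81). The lowest Pparα-/- CTRL mouse thus lay above every WT CTRL mouse, while on HFD all genotypes overlapped.

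The Ghr difference on CTRL was 0.52 ± 0.10 against WT (1.44-fold, adjusted p = 2.67e-05, 0.80 and 0.51 within wash batches 1 and 2) and 0.39 ± 0.09 against Pparα hep-/- (1.31-fold, adjusted p = 4.61e-04), and both calls held in every fit that was run. HFD feeding lowered Ghr in Pparα-/- livers by -0.27 ± 0.08 (1.20-fold, adjusted p = 0.0169, all 8 mice below the CTRL mean), against 0.15 in WT (adjusted p = 0.307) and 0.02 in Pparα hep-/- (adjusted p = 0.887). This response differed from that of WT by -0.41 ± 0.13 (adjusted p = 0.0226). Both calls were lost without Pparα-/- HFD mouse 7 (adjusted p = 0.0775 and 0.0570) or mouse 8 (0.0697 and 0.0535), the 2 lowest of that group, and without weights (0.273 and 0.147). Of the other Ghr probes, A_51_P499854 (0.53, adjusted p = 2.28e-06) and A_52_P680941 (0.55, adjusted p = 7.19e-05) were also higher in Pparα-/- than in WT livers on CTRL, and A_52_P633550 was not called (0.26, adjusted p = 0.329). Against Pparα hep-/- livers on CTRL A_51_P499854 was called (0.42, adjusted p = 2.89e-05), but A_52_P680941 (0.25, 0.0547) and A_52_P633550 (0.36, 0.129) were not. On HFD, where the brightest probe was called against neither genotype (0.11, adjusted p = 0.296 against WT, and 0.11, 0.326 against Pparα hep-/-), A_51_P499854 was called against WT (0.20, adjusted p = 0.0240) and against Pparα hep-/- (0.32, 3.00e-04), and A_52_P680941 against Pparα hep-/- (0.27, 0.0155). Without weights these 3 HFD calls were lost (adjusted p = 0.0716, 0.0893 and 0.377). The HFD response in Pparα-/- livers was not called for A_51_P499854 (-0.18, adjusted p = 0.0713), A_52_P680941 (-0.12, 0.372) or A_52_P633550 (-0.29, 0.221). Its difference from the WT response was called for A_51_P499854 (-0.34, adjusted p = 0.0383, and 0.145 without weights), in 37 of 48 fits that left out 1 array. For A_52_P633550 that difference was not called (-0.17, adjusted p = 0.703). A_52_P680941 was called higher in Pparα hep-/- than in WT livers on CTRL (0.30, adjusted p = 0.0273, and 0.33 with 0.126 without weights), where the other 3 probes were not.

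Igf1, the hormone gene that growth hormone signalling induces in hepatocytes, was lower in Pparα hep-/- livers than in both other genotypes by its brightest probe. The array's design assigns the 3 Igf1 probes, on the plus strand of mm9 chromosome 10, to different transcript records, and the first 30 of their 60 bases are shown since they disagree:
A_51_P147942 (brightest), chr10:87393516-87393575: cgcaggatcctttgctgcttgagcaacctg
A_55_P2085979, chr10:87378456-87378515: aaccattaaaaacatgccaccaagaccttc
A_52_P306327, chr10:87325382-87325441: taaaatagttgagtaaaatttgccactgat
Whether they measure different transcripts was not analysed here.

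The brightest Igf1 probe ran from 15.65 through 15.87 to 16.26 in WT CTRL livers and from 15.41 through 15.76 to 16.13 in WT HFD livers. Pparα hep-/- livers had 15.51 to 15.80 (median 15.55) on CTRL and 15.11 to 15.65 (median 15.53) on HFD, and Pparα-/- livers 15.87 to 16.25 (median 16.10) on CTRL and 15.70 to 16.17 (median 15.78) on HFD. The Pparα hep-/- and Pparα-/- groups did not overlap on either diet, whereas each overlapped with WT.

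Igf1 was lower in Pparα hep-/- than in WT livers by -0.32 ± 0.08 on CTRL (1.25-fold, adjusted p = 0.00283) and -0.36 ± 0.07 on HFD (1.28-fold, adjusted p = 2.97e-04). It was higher in Pparα-/- than in Pparα hep-/- livers by 0.48 ± 0.08 on CTRL (1.39-fold, adjusted p = 3.01e-06) and 0.39 ± 0.07 on HFD (1.31-fold, adjusted p = 1.60e-05). HFD feeding lowered it in Pparα-/- livers by -0.22 ± 0.07 (1.17-fold, adjusted p = 0.0231), a call lost without Pparα-/- CTRL mouse 4 (0.0645) or Pparα-/- HFD mouse 7 (0.0531) and under 4 of 12 other settings, no weights (0.0671) among them. The Igf1 diet difference in Pparα hep-/- livers was -0.13 (adjusted p = 0.187), but it was called with processed signals scaled to the 75th percentile (-0.32, adjusted p = 0.00549). The other probes followed only in part. In Pparα hep-/- against WT livers A_55_P2085979 gave -0.89 (adjusted p = 0.0245, and -0.73 with 0.0793 without weights) on CTRL but 0.13 (adjusted p = 0.777) on HFD, and A_52_P306327 gave -0.50 (adjusted p = 0.378) and 0.27 (adjusted p = 0.616). With the mean of the 3 probes the HFD difference between Pparα hep-/- and WT livers became 0.012 (adjusted p = 0.971), that between Pparα-/- and Pparα hep-/- livers 0.028 (adjusted p = 0.933), and the latter on CTRL lost its call (adjusted p = 0.123).

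Igfals encodes the acid-labile subunit that holds IGF1 in its large circulating complex, and is induced by growth hormone. Its probe (mm9 chr17:25018251-25018310, plus strand) ran from 9.52 through 10.70 to 11.19 in WT CTRL, from 9.92 through 10.71 to 10.92 in Pparα hep-/- CTRL and from 10.53 through 11.17 to 11.58 in Pparα-/- CTRL livers. On HFD it ran from 10.06 through 10.85 to 11.16, from 10.05 through 10.69 to 10.87 and from 10.44 through 10.63 to 10.83. All the groups overlapped, and the Pparα-/- HFD mice lay in the narrowest range.

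Igfals fell on HFD in Pparα-/- livers by -0.48 ± 0.12 (1.40-fold, adjusted p = 0.00338, -0.59 and -0.38 within wash batches 1 and 2), which held in every fit that was run, against 0.14 in WT (adjusted p = 0.546). These responses differed by -0.62 ± 0.18 (adjusted p = 0.0189, and 0.0845 without weights). On CTRL Igfals was higher in Pparα-/- than in Pparα hep-/- livers by 0.40 ± 0.13 (1.32-fold, adjusted p = 0.0155, and 0.0570 without Pparα-/- CTRL mouse 4) and than in WT livers by 0.36 ± 0.14 (1.28-fold, adjusted p = 0.0435). The latter was 0.80 within wash batch 1 and 0.12 within wash batch 2, and it was lost on leaving out any 1 of WT CTRL mice 1, 2, 3, 4 and 6 and Pparα-/- CTRL mice 1, 3, 4, 7 and 8, with adjusted p up to 0.128, and under 5 of 12 other settings. On HFD Igfals was lower in Pparα hep-/- than in WT livers by -0.34 ± 0.12 (1.27-fold, adjusted p = 0.0330). That difference was -0.01 and -0.49 within wash batches 1 and 2, and it was lost without any 1 of WT HFD mice 5, 7 and 8 and Pparα hep-/- HFD mice 5, 6 and 8, and under 7 of 12 other settings, with 0.436 without weights and 0.0793 with slide as a block. In Pparα-/- against WT livers on HFD the difference was -0.27 (adjusted p = 0.0674), called without WT HFD mouse 6 (0.0300) and under 3 of 12 other settings.

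Among the binding proteins, Igfbp1, which sequesters IGF1 and is repressed by insulin, was higher in Pparα hep-/- livers. Its probe (mm9 chr11:7102442-7102501, plus strand) had the widest range of the 10 genes in all groups but WT HFD and Pparα hep-/- HFD. It ran from 11.78 through 13.68 to 15.12 in WT CTRL, from 14.03 through 15.06 to 16.54 in Pparα hep-/- CTRL and from 12.43 through 14.13 to 15.34 in Pparα-/- CTRL livers. On HFD the ranges were 13.15 to 15.76 (median 13.49), 13.51 to 15.84 (median 14.79) and 12.15 to 16.18 (median 14.65). The groups overlapped in every comparison.

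The Igfbp1 level in Pparα hep-/- livers exceeded that in WT by 1.60 ± 0.46 on CTRL (3.02-fold, adjusted p = 0.00873, 1.97 and 1.35 within wash batches 1 and 2), with all 8 mice above the WT mean and the call kept in every fit that was run. On HFD the difference was 1.13 ± 0.42 (2.19-fold, adjusted p = 0.0403), a call lost in 9 of 48 fits that left out 1 array (WT HFD mice 3, 4, 7 and 8 and Pparα hep-/- HFD mice 3, 5, 6, 7 and 8) and under 6 of 12 other settings, no weights (0.372) among them. On CTRL Igfbp1 was lower in Pparα-/- than in Pparα hep-/- livers by -1.16 ± 0.43 (2.24-fold, adjusted p = 0.0434), which was lost in 9 of 48 such fits (Pparα-/- CTRL mice 1, 2, 4 and 6 and Pparα hep-/- CTRL mice 2, 4, 5, 7 and 8, with 0.152 without Pparα-/- CTRL mouse 6). It was also lost with slide as a block (0.0852), with a replicate block (0.0549), without weights (0.0645), without the wash batch term (0.0943) and under 2 further settings of 12. In Pparα-/- against WT livers on HFD the difference was 0.83 (adjusted p = 0.101), called without Pparα-/- HFD mouse 1 (0.0234) and with slide as a block (0.0263). Diet differences were 0.33, -0.14 and 0.72 in WT, Pparα hep-/- and Pparα-/- livers, and none was called.

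Igfbp2, a binding protein secreted by hepatocytes, had the largest range of group means of the 10 genes, 2.26 on the log2 scale. Its probe (mm9 chr1:72898677-72898736, plus strand) ran from 14.22 through 14.37 to 14.75 in WT CTRL livers, from 11.98 through 13.51 to 13.89 in Pparα hep-/- CTRL livers and from 11.89 through 13.36 to 13.75 in Pparα-/- CTRL livers. On HFD it was 11.54 to 14.43 (median 13.96) in WT, 10.08 to 13.28 (median 12.23) in Pparα hep-/- and 12.03 to 13.32 (median 12.90) in Pparα-/- livers. Every mutant mouse on CTRL lay below every WT mouse on CTRL. On HFD the ranges overlapped, in the Pparα-/- mice through WT mice 3 and 6 alone.

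Both mutants had less Igfbp2 than WT on CTRL, by -1.14 ± 0.35 in Pparα hep-/- livers (2.20-fold, adjusted p = 0.0121) and -1.20 ± 0.36 in Pparα-/- livers (2.30-fold, adjusted p = 0.00790). On HFD the differences were -1.83 ± 0.31 (3.57-fold, adjusted p = 2.15e-05, -1.05 and -2.07 within wash batches 1 and 2) and -1.01 ± 0.31 (2.02-fold, adjusted p = 0.00676). HFD feeding lowered Igfbp2 in Pparα hep-/- livers by -1.32 ± 0.30 (2.50-fold, adjusted p = 0.00160), against -0.63 in WT (adjusted p = 0.238) and -0.44 in Pparα-/- livers (adjusted p = 0.327). These responses were not shown to differ, with -0.70 (adjusted p = 0.349) between Pparα hep-/- and WT and 0.88 (adjusted p = 0.298) between Pparα-/- and Pparα hep-/- livers. The 5 calls above were made in every fit that was run. A sixth call, 0.82 ± 0.29 in Pparα-/- over Pparα hep-/- livers on HFD (1.77-fold, adjusted p = 0.0273), was 0.12 and 1.16 within wash batches 1 and 2. It was lost without any 1 of Pparα-/- HFD mice 7 and 8 and Pparα hep-/- HFD mice 5, 6, 7 and 8, falling to 0.48 (adjusted p = 0.177) without Pparα hep-/- HFD mouse 5, and under 5 of 12 other settings, no weights (0.276) among them.

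The suppressors of cytokine signalling Socs2 and Socs3 both had their highest group mean in WT CTRL livers. Socs2, which STAT5 induces and which attenuates growth hormone receptor signalling, was read by its brightest probe at mm9 chr10:94875066-94875125 (minus strand). It ran from 9.88 through 10.76 to 12.87 in WT CTRL livers and from 8.27 through 9.67 to 10.81 in WT HFD livers. Pparα hep-/- livers had 9.38 to 11.20 (median 10.25) on CTRL and 8.83 to 11.30 (median 9.58) on HFD, and Pparα-/- livers 8.46 to 10.19 (median 9.55) and 8.78 to 10.64 (median 9.93). The groups overlapped, though only WT CTRL mouse 2 lay within the Pparα-/- CTRL range.

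Socs2 fell on HFD in WT livers by -1.76 ± 0.39 (3.38-fold, adjusted p = 0.00113, -1.91 and -1.01 within wash batches 1 and 2, all 8 mice below the CTRL mean). It was lower than in WT on CTRL by -1.87 ± 0.40 in Pparα-/- livers (3.64-fold, adjusted p = 2.23e-04) and by -1.12 ± 0.38 in Pparα hep-/- livers (2.18-fold, adjusted p = 0.0252). The latter was -0.39 and -1.13 within wash batches 1 and 2, fitted without weights. Its call was lost without any 1 of WT CTRL mice 1, 3 and 4 and Pparα hep-/- CTRL mouse 8, and without weights (0.108). In Pparα-/- livers the HFD difference was 0.62 (adjusted p = 0.197), and it differed from that of WT by 2.37 ± 0.52 (adjusted p = 0.00179), the largest difference between responses among the 10 genes and called in every fit that was run. WT CTRL livers enter each of these comparisons. Pparα-/- against Pparα hep-/- livers on CTRL gave -0.74 (adjusted p = 0.130), which was called with the groups of the comparison alone (-0.85, 0.00446). On HFD no genotype difference was called. Both other tested Socs2 probes, at chr10:94875468-94875527 and chr10:94850747-94850806, fell on HFD in WT (-1.56, adjusted p = 0.00225, and -0.66, adjusted p = 0.00463) and were lower in Pparα-/- CTRL than in WT CTRL livers (-1.85, adjusted p = 1.29e-04, and -0.90, adjusted p = 5.78e-05), though the second of these probes was well above background on 4 of 8 Pparα-/- CTRL arrays and 40 of 48 in all. The remaining probe (chr10:94848005-94848064) was well above background on 7 of 48 arrays and did not pass the filter.

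Socs3, which STAT3 induces after interleukin-6 and which dampens cytokine and insulin receptor signalling, has 1 probe (mm9 chr11:117827480-117827539, minus strand). It ran from 10.29 through 11.61 to 12.65 in WT CTRL livers. In WT HFD livers mice 1 and 2 had 13.09 and 12.63 while the other 6 lay between 9.64 and 10.37, and the weights of those 2 arrays were 0.537 and 0.343. Pparα hep-/- livers had 9.36 to 11.00 on CTRL, with the middle mice at 9.98 and 10.01, and 9.25 to 10.71 (median 10.28) on HFD, and Pparα-/- livers 10.33 to 12.46 (median 11.02) and 10.23 to 11.30 (median 11.01). Among CTRL mice, WT overlapped with Pparα hep-/- only through WT mouse 6, the array of low weight, since the next lowest WT value was 11.55.

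On CTRL Socs3 was lower in Pparα hep-/- than in WT livers by -1.89 ± 0.33 (3.71-fold, adjusted p = 3.08e-05, -1.36 and -1.82 within wash batches 1 and 2) and higher in Pparα-/- than in Pparα hep-/- livers by 1.18 ± 0.31 (2.27-fold, adjusted p = 0.00327), both called in every fit that was run. HFD feeding lowered it in WT livers by -1.62 ± 0.34 (3.07-fold, adjusted p = 6.01e-04), but without weights it was -0.96 (adjusted p = 0.0843) and within wash batches, unweighted, -0.91 and -1.0. The difference of responses between Pparα hep-/- and WT was 1.83 ± 0.45 (adjusted p = 0.00700, and 1.14 with adjusted p = 0.332 without weights). Between Pparα-/- and WT it was 1.28 ± 0.45 (adjusted p = 0.0497), called in only 17 of 48 fits that left out 1 array and 3 of 12 other settings, and it was 0.64 (adjusted p = 0.492) without weights and 1.23 (0.0732) with slide as a block. Other differences were not called in the fit to all arrays but passed in some other fits. Pparα-/- against WT on HFD (0.58, adjusted p = 0.109) was called without WT HFD mouse 1 (0.0123) or 2 (0.0321), Pparα-/- against WT on CTRL (-0.71, adjusted p = 0.110) without Pparα-/- CTRL mouse 8 (0.0499), and Pparα-/- against Pparα hep-/- on HFD (0.64, adjusted p = 0.0783) without Pparα-/- HFD mouse 5, Pparα hep-/- HFD mouse 1 or WT HFD mouse 1, and also with the groups of the comparison alone (0.0260) and with a replicate block (0.0379).

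**Figure D3:**
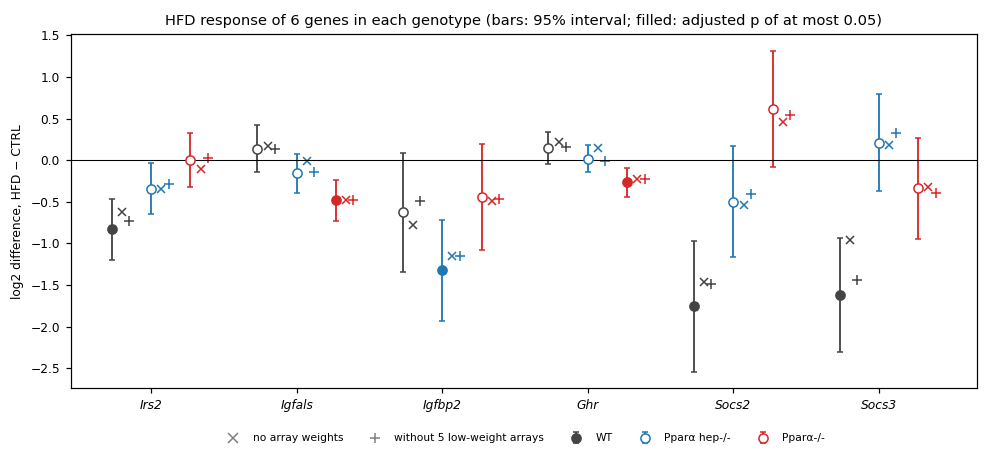
HFD minus CTRL log2 difference (vertical axis) of 6 genes in each genotype (colours), with bars for the 95% interval, filled circles for calls and crosses for the estimate without array weights. Plus signs mark the estimate without the 5 arrays of low weight and with no weights on the rest. Irs2, Socs2 and Socs3 fall in WT, where the Socs3 estimate moves from -1.62 to -0.96 without weights, Igfbp2 falls in Pparα hep-/- and Igfals and Ghr fall in Pparα-/- livers.

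**Figure D4:**
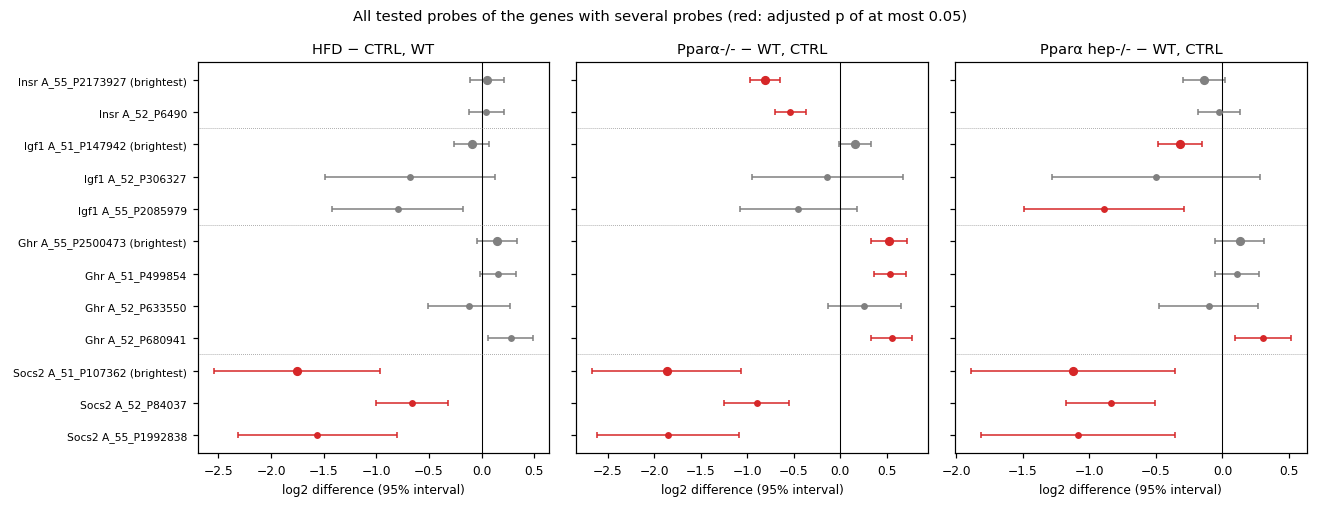
Log2 difference with its 95% interval (horizontal axis) of every tested probe of Insr, Igf1, Ghr and Socs2 in 3 comparisons, in red where called. Both Insr probes lie below 0 in Pparα-/- against WT on CTRL, 3 of 4 Ghr probes are called above 0 there, and the 3 Socs2 probes are called below 0 in all 3 panels.

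The rest of the pathway was described through gene lists, whose counts are to be read against the share of all probes called in the same comparison. Of 34 tested genes of insulin and IGF receptor signalling, 0 rose and 5 fell on HFD in WT (5 called without weights), a share close to that of all probes (18.8%, 10.2% lower), among them Sh2b2 (-0.88), Grb10 (-0.45) and Pik3r1 (-0.37), all encoding proteins that bind the activated receptor or its adaptors. Pparα-/- livers on HFD had 13 higher and 6 lower genes than WT (12 called without weights, background 45.7%), led by Ide (-1.05), the insulin-degrading enzyme, Trib3 (0.82), a pseudokinase that binds AKT, and Dok1 (0.72), an adaptor. On CTRL they had 6 higher and 8 lower (12 without weights, background 34.2%), with Ide (-0.92, adjusted p = 3.03e-09), Igf1r (0.78, adjusted p = 4.93e-06), the IGF1 receptor, and Rps6kb1 (-0.67), which encodes S6 kinase. Ide was also lower in Pparα hep-/- than in WT livers, by -0.89 on CTRL and -1.0 on HFD, where 2 genes of the list were higher and 9 lower (5 without weights, background 24.7%), and 5 higher and 6 lower (5 without weights, background 26.7%). Igf1r in Pparα hep-/- livers differed from WT by 0.07 (adjusted p = 0.744) on CTRL. The list's median difference in Pparα-/- against WT was 0.03 on CTRL and 0.04 on HFD, close to the median of all probes, -0.02 and -0.03.

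Of 8 tested genes among further IGF ligands, binding proteins and their proteases, 1 was called in Pparα-/- against WT livers on CTRL (background 34.2%). This was Igfbp3, the main carrier of IGF1 in plasma, made chiefly by non-parenchymal cells of the liver, at 1.64 ± 0.15 (adjusted p = 1.76e-12). On HFD 2 were called (background 45.7%). Igfbp3 differed by 1.92 ± 0.13 (adjusted p = 4.99e-17) and Igfbp7 by 0.91, and both were called without weights. Against Pparα hep-/- livers Igfbp3 was higher by 1.55 on CTRL and 1.37 on HFD. Markers of non-parenchymal cells were higher in part on CTRL and more widely on HFD in the same livers, as given above, and their part was not tested. In Pparα hep-/- against WT livers on HFD 3 genes were higher (background 26.7%), Igfbp7 (0.85), Htra1 (0.84) and Igfbp3 (0.55), none of which was called without weights. Stellate cell markers were higher there too (8 of 9), and their part was not tested.

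Of 18 genes of growth hormone and prolactin receptor signalling, 2 rose and 6 fell on HFD in WT livers (6 called without weights, background 18.8%). Cish, which STAT5 induces as it does Socs2, fell by -1.70 ± 0.56 (adjusted p = 0.0277), while Prlr, the prolactin receptor, rose by 1.17 and Ptpn6, a phosphatase expressed mostly in blood cells, by 0.50. In Pparα hep-/- against WT livers on CTRL 2 genes were higher and 6 lower (7 without weights, background 24.7%), with Cish at -1.83 ± 0.55 (adjusted p = 0.0109). Pparα-/- livers had 2 higher and 4 lower than WT on CTRL (5 without weights, background 34.2%) and 5 higher and 2 lower on HFD (3 without weights, background 45.7%), led by Sirpa, a receptor of myeloid cells, at 1.04 and 1.62. Cish was not among those called on CTRL, where Socs2 was lower. Against the WT diet response, that of Pparα hep-/- livers was called higher for 5 genes (0 without weights, background 10.4%), Cish at 2.22 among them. That of Pparα-/- livers was called for 0 genes of the list (background 14.3%). For 2 genes named after their values were seen, the differences of Stat5b, the main growth hormone effector in liver, lay between -0.17 and 0.17 (lowest adjusted p = 0.135), and Jak2 was called in Pparα-/- against WT on HFD (0.18, adjusted p = 0.0310, and 0.188 without weights).

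Hepatocyte regulators of sex-biased genes, a list of 12, had 2 higher and 2 lower genes on HFD in WT livers (4 without weights, background 18.8%). Among them were Onecut1 (-1.65, adjusted p = 0.0310), a transcription factor that growth hormone induces, Foxa1 (-0.64) and Nr1i3 (1.04), the receptor CAR. In Pparα-/- against WT livers on CTRL 2 were higher and 4 lower (6 without weights, background 34.2%), with Onecut1 at -1.59 (adjusted p = 0.0251), Nr1i3 at 1.57 and Foxa1 at -1.19. Of 14 male-biased genes, which depend on growth hormone pulses, 0 rose and 11 fell on HFD in Pparα-/- livers (7 without weights, against 12.6% of all probes lower), with Hsd3b5 at -3.64 and Elovl3 at -1.90, and 0 rose and 6 fell in Pparα hep-/- livers (2 without weights, against 10.8%), while 1 rose and 1 fell in WT (1 without weights, against 10.2%). Their median difference was -0.98 in Pparα-/-, -0.44 in Pparα hep-/- and -0.21 in WT livers. Tested directly, the HFD response was lower than that of WT for 3 of the 14 in Pparα-/- livers (2 without weights, background 14.3%), Elovl3 (-3.22) among them, and for 4 in Pparα hep-/- livers (none without weights, background 10.4%), while Hsd3b5 was not called in either (adjusted p = 0.158 and 0.176). Kupffer, stellate and monocyte markers rose on HFD in the same livers, as given above, and their part was not tested. Of 13 female-biased genes 3, 3 and 4 rose and 1, 1 and 0 fell on HFD in WT, Pparα hep-/- and Pparα-/- livers (background 18.8%, 20.2% and 24.8%), with Cyp2b9 at 4.77 in WT and 5.43 in Pparα hep-/- livers, Cyp2b13 at 3.67 in Pparα hep-/- livers and Cyp39a1 at 2.62 in Pparα-/- livers. Compared with the WT response, that of Pparα-/- livers was called higher for 1 (Cyp39a1) and lower for 1 (Cyp2b9), and that of Pparα hep-/- livers higher for 2 and lower for 2 (2 and 1 called without weights, background 14.3% and 10.4%).

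Genes that insulin regulates in hepatocytes, a list of 14, were mostly lower in Pparα-/- livers. There 1 was higher and 9 lower than in WT on CTRL (9 without weights, background 34.2%), and 0 higher and 9 lower on HFD (8 without weights, background 45.7%), led by Scd1 (-4.32). Against Pparα hep-/- livers 0 were higher and 12 lower on each diet (10 without weights on each, background 25.2% on CTRL and 30.6% on HFD). Pdk4, a kinase that restrains pyruvate oxidation, was higher in Pparα hep-/- than in WT livers on CTRL (2.69, adjusted p = 1.30e-07), and Srebf1, the lipogenic transcription factor, was lower (-1.08). Several of these genes are also known targets of PPARα. Of 16 tested genes of the interleukin-6 and acute phase list, 9 were higher and 0 lower in Pparα-/- than in WT livers on HFD (3 without weights), close to the background of 45.7%, led by Lcn2 at 3.49, and 4 and 0 on CTRL (4 without weights, background 34.2%). Most Kupffer and monocyte markers were also higher in these livers on HFD, as given above, and their part was not tested.

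The likeness of expression was measured, as a description only, by Pearson's r over the 48 arrays after removing the wash batch, for the 4 genes with the largest range of group means. Nearest to Igfbp2 were Tango6 (r = 0.942), Tmem183a (0.802), Rnf126 (0.791), Ahsa2 (0.784) and Trabd (0.781). Nearest to Socs2 were Abhd17b (0.772), an unnamed transcript at mm9 chr10:94870971-94871658 (0.748), which lies between the Socs2 probes, Onecut1 (0.745), Ikzf4 (0.730) and Zfp809 (0.725). Socs3 was followed by Lrig1 (0.849), a feedback inhibitor of EGF receptor signalling, Junb (0.821), an immediate early gene, Serpina10 (0.801), Egfr (0.799) and the transcript named AK051522 (0.797). Igfbp1 had weaker likeness, with Litaf (0.720), Cp (0.699), Caprin1 (0.697), Ube2n (0.690) and Hist1h3d (0.688). The longest run of bases that a probe of these genes shared with that of the member was 7, except 13 for AK051522, and the points share arrays and group differences.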

How the data were processed

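Hepatic RNA of 48 mice was hybridised on 1-colour Agilent arrays, 1 per mouse. The deposited scanner files, written by Agilent Feature Extraction 10.10.1.1 per the file headers, hold spot intensity values that the authors had not yet normalized. The authors also deposited a table of log2 values of 32816 probes, which correlated with the values used here at 0.999 or more on each array, with a median of 7.91 per array.

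Here, log2 of the median signal was taken without background subtraction, outlier spots were left out (193 missing values remained), spots of a probe were averaged, and probes were kept if any group had 4 or more of its 8 arrays well above background (33323 probes, 22029 gene names) before quantile normalization. In limma 3.58.1 (R 4.3.3), group means and the wash batch were fitted to all 48 arrays with estimated array weights, and p-values were adjusted by Benjamini-Hochberg within each of the 12 comparisons. The wash batch (2 in the labels) was the only batch in the main model, and 6 slides were tried as a block. The number of arrays limits the precision. Probe positions are those of the array's design on mm9. The model was tested on simulated data, whose outcome is not reported here.

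Members and gene lists (198 genes, 181 tested) were chosen with earlier results of these data known. Named were all 10 members, up to 3 called genes of a list with the largest change, and the 5 nearest genes of up to 4 members with the largest range of group means, any exception being stated. Some genes of the lists are counted but not reported here by name. There were 12 alternatives besides leaving out each array: processed signals scaled to the 75th percentile (in place of quantile-normalized median signals), normexp (offset 50), the authors' log2 values, no filter, a filter of 8 of 8 arrays, no weights, no wash term, slide block, replicate block, the mean of a gene's probes, the groups of a comparison alone, and leaving out arrays of weight below 0.5 with no weights on the rest.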

Additional observations from a re-analysis of the deposited data

Results flagged for a closer look

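Of 60 gene by group sets of 8 mice, 8 had 1 mouse far from the others (the gap to the nearest mouse exceeding Dixon's 95% limit, which chance passes in about 1 in 20 sets). In WT CTRL mouse 6, of low array weight, Insr was 7.65, Igfals 9.52 and Socs3 10.29. In Pparα hep-/- CTRL mouse 1, also of low weight, Insr was 7.54 and Ghr 13.79. In WT HFD mouse 6 Igfals was 10.06, in WT HFD mouse 2 Igfbp1 was 15.76, and in Pparα-/- CTRL mouse 2 Igfbp2 was 11.89.

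The response to HFD differed between genotypes by limma's interaction term for 6 pairs of gene and genotype. Against WT, the response of Pparα-/- livers differed by 2.37 for Socs2 (adjusted p = 0.00179), 0.83 for Irs2 (0.0167), -0.62 for Igfals (0.0189), -0.41 for Ghr (0.0226) and 1.28 for Socs3 (0.0497). That of Pparα hep-/- livers differed by 1.83 for Socs3 (adjusted p = 0.00700). Of these, Socs2 alone was called in every fit that was run.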

How the results depend on the processing

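Of 42 called differences, 22 were called under all 12 other settings and 29 in all 48 fits that left out 1 array. The diet response counts (7 of 30) fell to 4 without array weights and rose to 9 with processed signals scaled to the 75th percentile (23.2% of all probes). That setting replaced both the median signal and quantile normalization, and Igf1 and Irs2 were called there in Pparα hep-/- livers. The difference of responses (6 of 30) fell to 1 without weights, 1 without the filter on dim probes and 3 without the wash batch term. Over all probes the mean percent called in the fits where counts fell was 9.51% against 21.3%, and 2.15%, 2.45% and 6.05% against 9.39%. For genotype differences (29 of 60), no setting moved the count by over 1.5 times, though the percent of all probes fell from 31.2% to 14.9% without the filter. With the mean of a gene's probes the HFD difference of Igf1 between Pparα hep-/- and WT livers reversed to 0.012. Leaving out 1 array gave 5 to 8, 26 to 31 and 4 to 6 calls, and no direction reversed. Without the 5 arrays of low weight, chosen after seeing the data, and with no weights on the rest, the counts were 6, 25 and 5. With a replicate block the counts were 7, 28 and 5. Deviations of 120 same-numbered pairs had a median correlation of 0.0223 (-0.449 to 0.694, 35 over 0.1), against -0.0023 for other pairs. Of 48 arrays, 11 correlated best with their own number. These values do not settle whether the replicate numbers pair the mice. The cause of the lost calls was not tested.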
